A study of Mus musculus with 12 samples.

Results

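The genes described here are the chitinases and chitinase-like proteins of the mouse lung: the chitinases Chia1 and Chit1, and the chitinase-like Chil1, Chil3 and Chil4. They were taken by symbol, 5 of the 49585 genes in the deposited table, and 4 of the 5 were among the 16126 genes that passed the filter on low values (a minimum of 1 CPM, reads scaled to library size, in 3 or more of the 12 libraries). Chit1 did not pass. The study asked what Rgs4, which shortens signals from G protein-coupled receptors, does in asthma, and sequenced polyadenylated lung RNA of knockout (KO) and wild-type (WT) mice. Both genotypes carry the strain label Balb/cJ, and each received the mould Aspergillus fumigatus (Af) or, as control, phosphate-buffered saline (PBS). The groups were WT_PBS (libraries 15, 16 and 17), WT_Af (18, 19 and 20), KO_PBS (9, 10 and 11) and KO_Af (12, 13 and 14). The sources used here do not give the age of the mice, how the knockout was made, or in which form, by which route and at what dose Af was given.

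Chitin is the polymer of N-acetylglucosamine in the cell wall of fungi and the shell of arthropods, and mammals cut it with enzymes of glycoside hydrolase family 18. Chitinase-like proteins have the same fold and can bind sugars but do not cut chitin, since the catalytic glutamate of the enzymes is replaced. Members of both kinds are known as products of macrophages and airway epithelium in allergic and fungal lung disease, and interleukins 4 and 13 are known to induce several of them.

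The coding sequences show this division. Below, 30 coding bases around the active site are given for each gene, from its GENCODE M21 transcript on GRCm38, to show which members keep the catalytic codon. Capitals mark the codon at bases 25 to 27 that aligns with the catalytic glutamate.
Chia1: tttgatggactggacctggactggGAAtac
Chit1: tttgatggccttgaccttgactggGAGttc
Chil1: tttgatgggctggatctcgcctggCTCtac
Chil3: tttgatggcctcaacctggactggCAGtac
Chil4: tttgatggcctcaacctggactggCAGtac
Chia1 and Chit1 had a glutamate codon there, and the chitinase-like members had codons of other amino acids. Counting from 1 at the first base shown, Chit1 differed from Chia1 by A9C, G12T, G18T, A27G and A29T, which left a glutamate codon. Chil3 and Chil4 were identical to each other in this stretch and differed from Chia1 by A9C, G12C, G13A, G25C and A27G. Chil1 differed from Chia1 at 7 bases, of which G25C, A26T and A27C changed the marked codon.

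Rgs4, the deleted gene (chr1:169741477-169747642, minus strand, GRCm38), was checked first. Its level was 22.9 ± 2.63 CPM (SD, n = 3) in WT_PBS against 0.892 ± 0.282 CPM in KO_PBS, and 45.1 ± 3.27 CPM in WT_Af against 1.15 ± 0.311 CPM in KO_Af. Total reads ran from 20708884 to 30229446 per library. KO libraries carry the numbers 9 to 14 and WT libraries 15 to 20, and in each genotype the PBS libraries come first, so library order cannot be told apart from genotype or exposure. Libraries WT_PBS 17 and KO_Af 12 stood apart in the summed markers of squamous epithelium, the layered lining of the oesophagus and upper airway. Their 10 markers summed to 628.9 and 317.6 CPM, against 2.31 to 36.9 CPM in the other 10 libraries. Results for Chil4 are given with and without them.

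In both genotypes the lungs exposed to Af held more transcript of every member that could be tested. Chil3 was about 17-fold, Chia1 about 15-fold and Chil1 about 2-fold higher, and Chil4 was nearly absent from all control libraries but WT_PBS 17 and abundant in every exposed one. All 4 tested members rose in WT (limma, adjusted p under 0.05), where 26.2% of all genes tested rose. All 4 rose in KO as well, where 28.7% of genes rose. The exposed and control groups did not overlap for any of the 4 in either genotype, which held in the same direction for 32.7% of genes in WT and 31.1% in KO. Among PBS libraries Chil4 reached 1 CPM only in WT_PBS 17, so it passed the filter through its Af libraries. Its place among these 4 is therefore not independent of the filter. Summed over the 5 genes, the level went from 1247 ± 95.9 CPM (SD, n = 3) in WT_PBS to 6403 ± 967 CPM in WT_Af, and from 1227 ± 68.0 CPM in KO_PBS to 6836 ± 1046 CPM in KO_Af. In whole lung, a change in the number of cells that express a gene and a change in RNA per cell cannot be told apart.

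**Figure D1:**
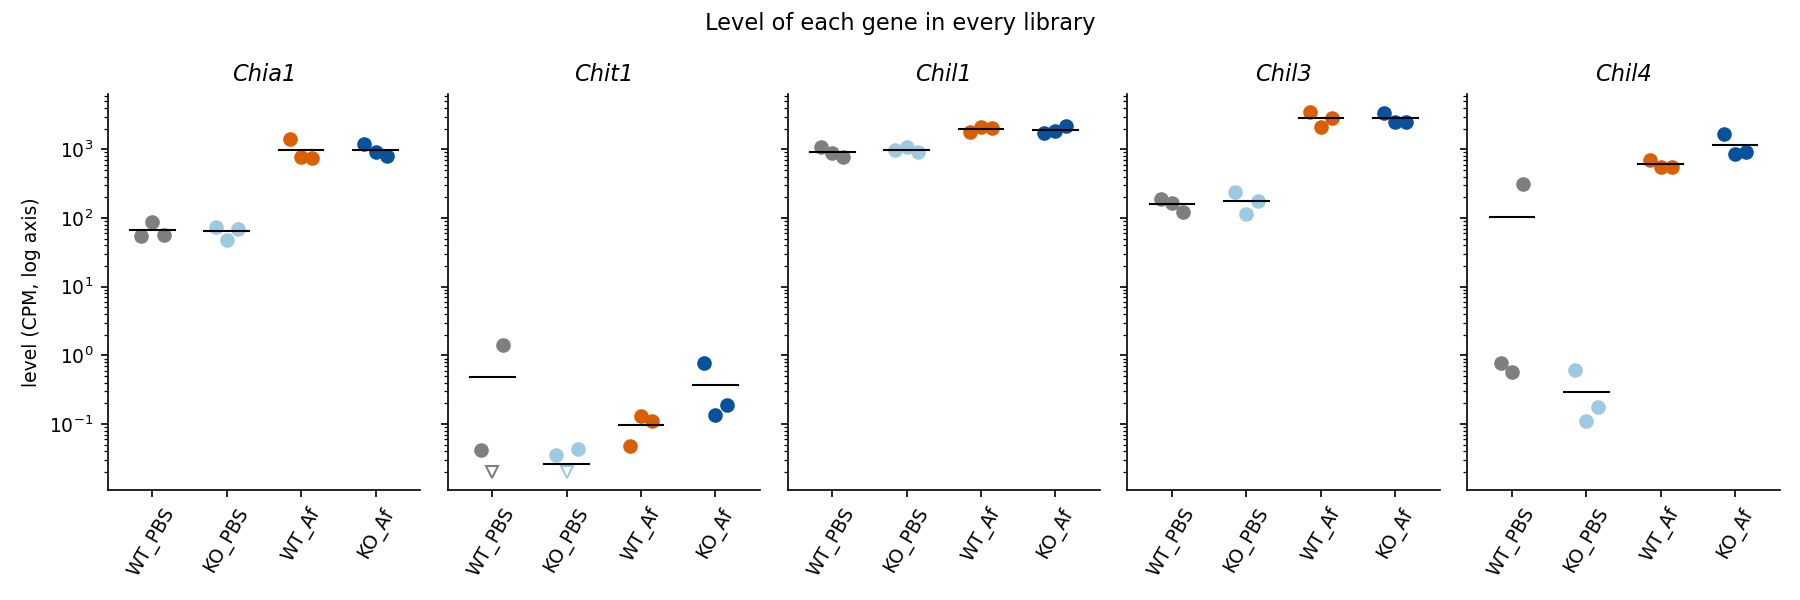
Level of each gene in every library (CPM, log axis) by group, with a bar at the group mean of 3 libraries and open triangles for libraries with no read. The Af libraries of Chia1, Chil1, Chil3 and Chil4 all lie above the PBS libraries; WT_PBS 17 has the highest Chil4 level among the PBS libraries (309.9 CPM), and for Chil4 the KO_Af libraries lie above the WT_Af libraries.

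Chia1 (ENSMUSG00000062778, chr3:106113229-106132120, plus strand, GRCm38) encodes acidic mammalian chitinase, a secreted enzyme that cuts chitin and is known from stomach, salivary gland and airway epithelium. Its level was 54.8, 87.3 and 56.4 CPM in WT_PBS 15, 16 and 17, and 1433, 764 and 742 CPM in WT_Af 18, 19 and 20. In KO it was 74.7, 47.5 and 69.5 CPM in KO_PBS 9, 10 and 11, and 1212, 904 and 802 CPM in KO_Af 12, 13 and 14. One library in each Af group, WT_Af 18 and KO_Af 12, was the highest of its group. The change was 14.3-fold in WT (log2 3.84 ± 0.28 SE, limma adjusted p = 1.45e-06) and 15.2-fold in KO (log2 3.92 ± 0.28, adjusted p = 8.29e-07). Among the 16126 changes, Chia1 was 26th from the highest in WT and 42nd in KO.

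Chit1 (ENSMUSG00000026450, chr1:134111242-134151540, plus strand) encodes chitotriosidase, the other active chitinase, known in humans as a product of activated macrophages. It was close to undetected in these lungs. WT_PBS 15, 16 and 17 held 1, 0 and 30 of its reads, and KO_PBS 9, 10 and 11 held 1, 0 and 1. WT_Af 18, 19 and 20 held 1, 4 and 3 reads, and KO_Af 12, 13 and 14 held 20, 3 and 5. The 30 and 20 reads (1.42 and 0.787 CPM) fell in WT_PBS 17 and KO_Af 12, and every other library lay at 0.193 CPM or less. A library without a read still allows up to 3 reads, or 0.130 CPM in WT_PBS 16 and 0.111 CPM in KO_PBS 10, by counting error alone. With no filter on low values Chit1 passed no comparison (lowest adjusted p = 0.302, limma, for Af against PBS in KO).

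Chil1 (ENSMUSG00000064246, chr1:134182176-134190181, plus strand), known in humans as CHI3L1 or YKL-40, encodes a secreted chitinase-like protein made by macrophages, neutrophils and epithelium, and signals through Il13ra2 with the co-receptor Tmem219. Its level was 1095, 895 and 764 CPM in WT_PBS 15, 16 and 17, and 1783, 2108 and 2016 CPM in WT_Af 18, 19 and 20. In KO_PBS 9, 10 and 11 it was 965, 1085 and 905 CPM, and in KO_Af 12, 13 and 14 it was 1725, 1825 and 2163 CPM. It was thus already abundant in control lungs and varied little, with a coefficient of variation of 8.52% to 18.1% in the 4 groups. The change was 2.16-fold in WT (log2 1.11 ± 0.15 SE, limma adjusted p = 1.22e-04) and 1.93-fold in KO (log2 0.95 ± 0.15, adjusted p = 2.84e-04). Chil1 and Chit1 lie 35.6 Mb from Rgs4 on the same chromosome.

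Chil3 (ENSMUSG00000040809, chr3:106147554-106167564, minus strand), also called Ym1, encodes a rodent chitinase-like protein that is a widely used marker of alternatively activated macrophages and forms crystals in inflamed lung. Its level was 188, 164 and 122 CPM in WT_PBS 15, 16 and 17, and 3551, 2139 and 2856 CPM in WT_Af 18, 19 and 20. In KO_PBS 9, 10 and 11 it was 242, 115 and 177 CPM, and in KO_Af 12, 13 and 14 it was 3425, 2481 and 2534 CPM. The lowest Af library was more than 8 times the highest PBS library. The change was 17.8-fold in WT (log2 4.16 ± 0.27 SE, limma adjusted p = 8.84e-07) and 16.3-fold in KO (log2 4.03 ± 0.27, adjusted p = 5.90e-07).

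Chil4 (ENSMUSG00000063779, chr3:106201490-106219507, minus strand), also called Ym2, is the near copy of Chil3 and is known from stomach and from airway epithelium in allergic lungs. It held 17, 3 and 4 reads in KO_PBS 9, 10 and 11 (0.604, 0.111 and 0.176 CPM), and 19 and 13 reads in WT_PBS 15 and 16 (0.786 and 0.564 CPM). WT_PBS 17 held 6560 of its reads (309.9 CPM), far above every other control library. Under Af the level was 697, 559 and 562 CPM in WT_Af 18, 19 and 20, and 1665, 860 and 913 CPM in KO_Af 12, 13 and 14. In KO the change was log2 10.47 ± 1.59 SE (limma adjusted p = 1.89e-04), the highest of all 16126 genes. Its size depends on the pseudocount, since the control libraries held so few reads. Chil4 passed the filter on low values through its Af libraries, which bears on this rank.

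In WT the change of Chil4 was 80.2-fold over all libraries (log2 6.33 ± 1.59 SE, limma adjusted p = 0.00621). Without WT_PBS 17 it was log2 9.01 ± 0.30 in WT (adjusted p = 5.58e-08) and 10.47 ± 0.27 in KO (adjusted p = 7.08e-09). Without WT_PBS 17 and KO_Af 12 it was 9.01 ± 0.22 in WT and 10.17 ± 0.22 in KO (adjusted p = 2.65e-08 and 8.36e-09). The WT call was lost with edgeR's quasi-likelihood test on the recovered reads of all 12 libraries (log2 2.56, adjusted p = 0.158), while the KO call was kept (log2 11.86, adjusted p = 0.00125).

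**Figure D2:**
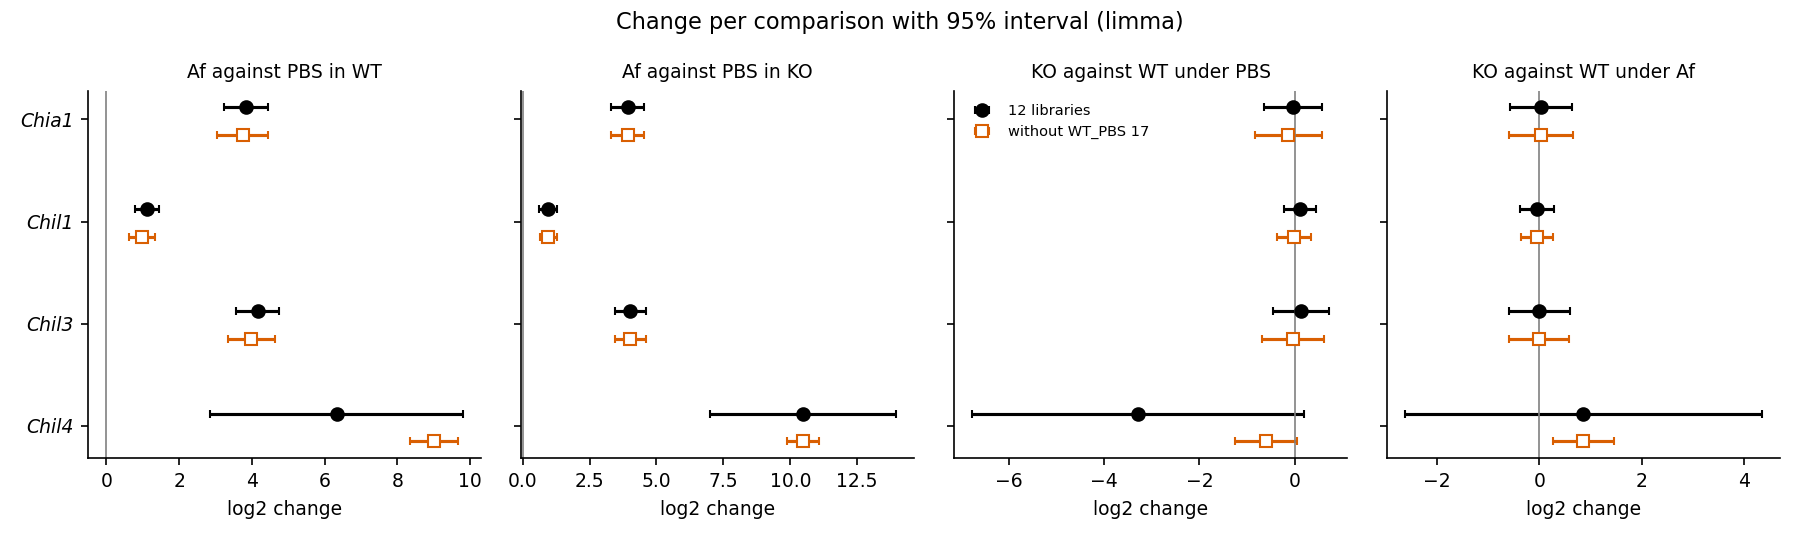
Log2 change of the 4 tested genes in each comparison (limma), with 95% intervals, over all 12 libraries (filled) and without WT_PBS 17 (open); each panel has its own axis range. All 4 genes lie above 0 for Af in both genotypes. Leaving out WT_PBS 17 narrowed Chil4 in every panel and moved it only where WT_PBS is compared, while the other genes stayed within their intervals.

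Chil3 and Chil4 lie side by side on the minus strand of chromosome 3 and agree in 1139 of 1206 aligned coding positions (94.4%), against 47.3% to 63.6% for the other pairs of members. Of all stretches of 50 bases in the Chil4 transcript, 18.5% also occur in that of Chil3, and 3.75% of stretches of 100 bases do. Read length and the handling of shared reads bear on how reads were divided between the copies, and the sources used here do not give the read length. Their separate levels are therefore uncertain, and their sum is less so. The sum was 262 ± 148 CPM (SD, n = 3) in WT_PBS, 178 ± 63.8 CPM in KO_PBS, 3454 ± 776 CPM in WT_Af and 3959 ± 981 CPM in KO_Af. It was 18.0-fold higher in the 6 Af than in the 6 PBS libraries (two-sided exact permutation test, p = 0.0021645, the smallest this design can give).

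The share of Chil4 in the pair did not pass the test between control and exposed lungs over all 12 libraries, and did without WT_PBS 17. Chil4 reads made up 0.416% and 0.342% of the pair in WT_PBS 15 and 16, and 0.249%, 0.0968% and 0.0993% in KO_PBS 9, 10 and 11. In WT_PBS 17 they made up 71.7% (95% Wilson interval 70.8 to 72.6). The share was 16.4%, 20.7% and 16.4% in WT_Af 18, 19 and 20, and 32.7%, 25.7% and 26.5% in KO_Af 12, 13 and 14. Every Af library thus lay above 5 of the 6 PBS libraries and below WT_PBS 17. The mean share was 10.9 percentage points higher under Af over all libraries (two-sided exact permutation test, p = 0.437). It was 22.8 points higher without WT_PBS 17 (p = 0.00433, same exact test) and 20.9 points higher without WT_PBS 17 and KO_Af 12 (p = 0.00794, same exact test). WT_PBS 17 was the only library that broke the order, so leaving it out made the separation complete. Both of these p-values are the smallest that their designs can give. Among Af libraries every KO library had a larger share than every WT library, 28.3% ± 3.83 against 17.8% ± 2.48 (SD, n = 3). Without KO_Af 12 the KO share was 25.7% and 26.5%, still above every WT_Af library. With 3 against 3, a two-sided exact permutation test cannot go below 0.1, and this difference was not tested.

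**Figure D3:**
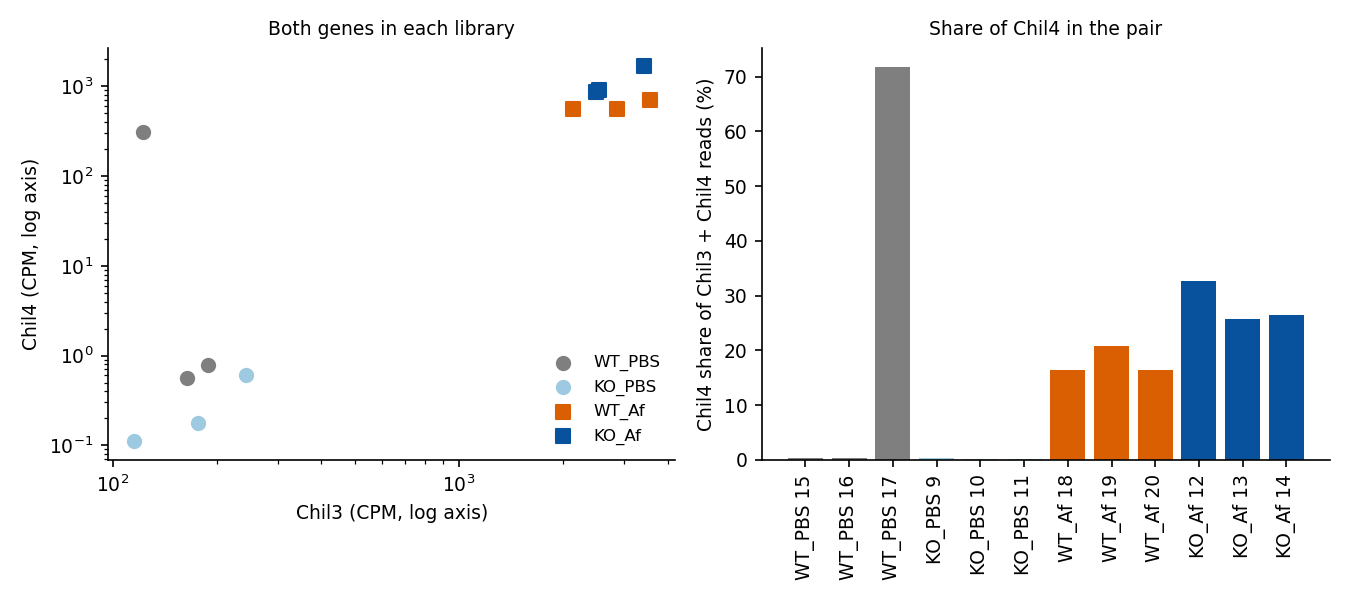
Left, Chil4 against Chil3 in each library (CPM, both axes log); right, share of Chil4 in the reads of both genes (%). Chil3 in WT_PBS 17 lies among the other control libraries, and Chil4 does not.

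The order of the members changed with exposure. Divided by transcript length, Chil1 led in control lungs with 544 ± 98.7 CPM per kilobase (SD, n = 3) in WT_PBS and 584 ± 54.3 in KO_PBS. It was followed by Chil3 at 103 ± 21.8 and 116 ± 41.3 CPM per kilobase, and by Chia1 at 39.4 ± 10.9 and 38.0 ± 8.59. In KO_PBS none of these neighbours overlapped, and Chil4 came next at 0.193 ± 0.174. In WT_PBS, Chil4 averaged 67.4 ± 116 CPM per kilobase and overlapped both Chil3 and Chia1, and without WT_PBS 17 it was 0.367 and 0.511.

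Under Af, Chil3 led with 1851 ± 459 CPM per kilobase in WT and 1828 ± 345 in KO, above Chil1 at 1167 ± 99.5 and 1129 ± 136 without overlap in either genotype. Chia1 at 583 ± 234 and Chil4 at 394 ± 51.2 CPM per kilobase overlapped in WT. In KO, Chil4 at 745 ± 293 overlapped both Chil1 and Chia1, which was at 579 ± 127. Without KO_Af 12 it was at 559 and 593 CPM per kilobase, below both Chil1 values (1082 and 1282). Chit1 was last in all 4 groups. As a share of the length-adjusted total of the 5 genes, Chil1 went from 72.2% and 79.2% in WT_PBS and KO_PBS to 29.9% and 26.9% under Af, while Chil3 went from 13.7% and 15.6% to 45.9% and 42.6%. Without WT_PBS 17 the shares in WT_PBS were 78.8% for Chil1, 15.3% for Chil3 and 0.0583% for Chil4.

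**Figure D4:**
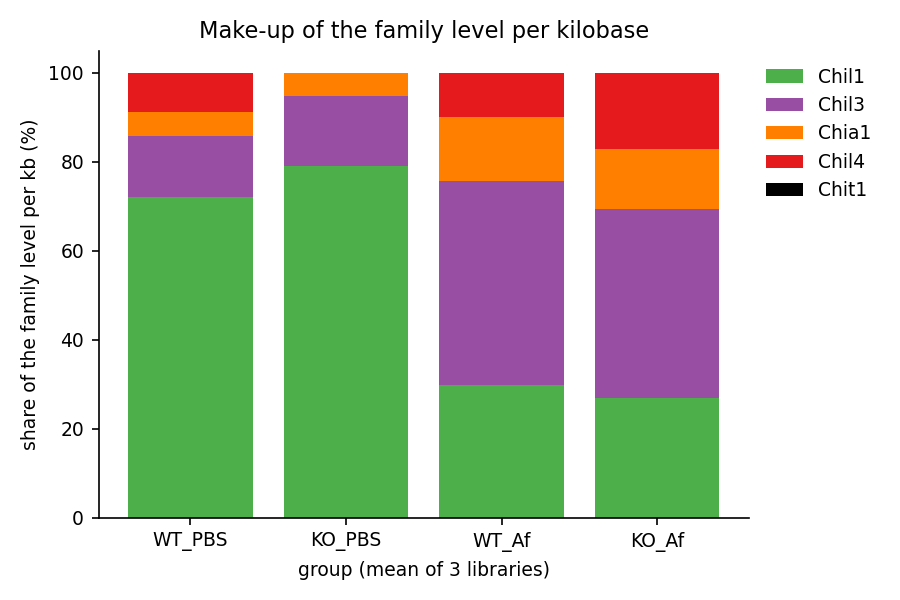
Share of each gene in the summed level per kilobase of the 5 genes (%), mean of 3 libraries per group. Chil1 made up most of the total in both PBS groups and Chil3 was the largest share in both Af groups; Chit1 is too small to be seen.

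Loss of Rgs4 moved none of the tested members past the threshold. Under PBS, 0 of 4 members were called (limma), where 3.55% of genes were, and under Af 0 of 4, where 0.0868% were. The average over exposures (2.16% of genes called) and the interaction of genotype with Af (0.0062% called) also gave 0 of 4. Over all 12 libraries limma gave 0 of 4 at an unadjusted p under 0.05 in each of these comparisons. DESeq2 called 0 of the 3 members to which it gave an adjusted p. edgeR called 0 of 4, with Chil4 under an unadjusted 0.05 in 3 of these comparisons (PBS, average and interaction). With WT_PBS 17 left out, the limma 95% interval of Chil4 excluded 0 under Af (0.27 to 1.45) and for the interaction (0.58 to 2.35). With KO_Af 12 left out as well, it excluded 0 under PBS too (-1.10 to -0.10). The other intervals were then 0.06 to 1.06 under Af and 0.45 to 1.87 for the interaction. Chil4 was not called in any of these fits.

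For Chil3, Chia1 and Chil1 the intervals were narrower than for Chil4. Under Af, KO differed from WT by log2 -0.00 for Chil3 (95% interval -0.60 to 0.59, limma), by 0.04 for Chia1 (-0.57 to 0.65) and by -0.05 for Chil1 (-0.39 to 0.28). Under PBS the differences were 0.13 for Chil3 (-0.47 to 0.72), -0.04 for Chia1 (-0.65 to 0.56) and 0.11 for Chil1 (-0.22 to 0.45). The KO and WT libraries of these genes overlapped under both exposures, where 33.1% of all genes under PBS and 13.8% under Af had groups that did not.

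Chil4 was the exception in its spread. Under Af its KO libraries (860 to 1665 CPM) all lay above its WT libraries (559 to 697 CPM), as was so in this direction for 7.66% of genes. The difference of log2 0.86 did not pass over 12 libraries (SE 1.59, 95% interval -2.63 to 4.35, limma adjusted p = 0.843). It did not pass without WT_PBS 17 either (SE 0.27, adjusted p = 0.376), nor without WT_PBS 17 and KO_Af 12 (log2 0.56, adjusted p = 0.457). Under PBS the difference was log2 -3.29 (95% interval -6.78 to 0.20, adjusted p = 0.323), and log2 -0.60 without WT_PBS 17 (adjusted p = 0.388). The interaction was 4.15 ± 2.26 SE on the log2 scale (adjusted p = 0.559), 1.46 ± 0.40 without WT_PBS 17 (adjusted p = 0.257) and 1.16 ± 0.31 without both libraries (adjusted p = 0.185). On the recovered reads of all 12 libraries the sizes were larger. edgeR gave log2 -8.37 under PBS (adjusted p = 0.0618) and 9.30 for the interaction (adjusted p = 0.193). DESeq2 gave -8.45 and 9.38, with neither a p nor an adjusted p.

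WT_PBS 17 and KO_Af 12, each the highest of its group for both Chil4 and Chit1, were also the libraries with the highest sums of squamous epithelium markers. KO_Af 12 was the highest of its group for Chia1 and Chil3 as well. Krt13, a keratin of oesophageal epithelium, was at 239.5 CPM in WT_PBS 17 and 136.7 CPM in KO_Af 12, and at 0.124 and 0 CPM in WT_PBS 15 and 16. Krt6b, a keratin of stressed squamous epithelium, was at 93.7 CPM in WT_PBS 17 and at 0.433 CPM in KO_Af 12. All 10 squamous markers had reads in these 2 libraries, while 2 to 5 of the 10 were at 0 in each of the other 10. WT_Af 18, 19 and 20 and KO_Af 13 and 14 had 559 to 913 CPM of Chil4 with squamous sums of 5.54 to 36.9 CPM. Of the 4 squamous markers tested, none passed for Af in WT and Krt14 rose in KO (log2 2.47 ± 0.84 SE, limma adjusted p = 0.0254), with medians of log2 -0.29 and 2.26. Without WT_PBS 17 and KO_Af 12, 2 of the 4 rose in WT and 1 in KO, with medians of 1.31 and 1.16, and Krt14 rose in both (log2 1.76 ± 0.30 and 2.25 ± 0.30, adjusted p = 8.51e-04 and 1.65e-04). The part of such tissue in the levels of Chil4 and Chit1 was not tested.

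**Figure D5:**
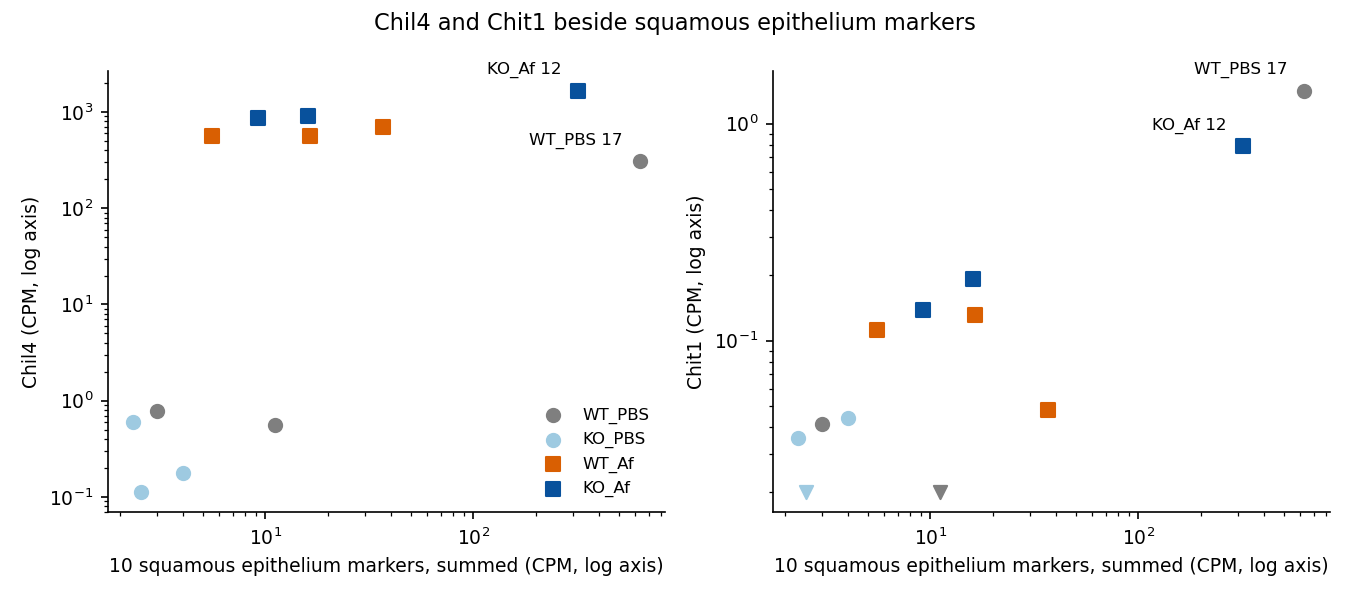
Chil4 (left) and Chit1 (right) against the summed level of 10 squamous epithelium markers in each library (CPM, log axes; triangles mark no Chit1 read). WT_PBS 17 and KO_Af 12 lie at the right of both panels, at 628.9 and 317.6 CPM of the markers, and the other 5 Af libraries lie at 559 to 913 CPM of Chil4 with marker sums of 36.9 CPM or less.

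Other tissues in which chitinases are known were also checked. Gastric epithelium genes were low everywhere: 8 of them summed to 4.66 to 7.16 CPM in PBS libraries and 11.0 to 25.2 CPM in Af libraries, with 1 to 5 of the 8 at 0 in each library. Of 2 that could be tested (medians of log2 0.55 in WT and 0.98 in KO), Tff2, a trefoil peptide of mucous cells, rose in both genotypes (log2 1.04 ± 0.31 SE in WT, limma adjusted p = 0.0147). The 8 genes of upper airway glands summed to 509.4 to 1367 CPM in PBS and 558.9 to 893.2 CPM in Af libraries. Of 5 tested, 2 rose and 1 fell in WT, and 3 rose and 1 fell in KO, with medians of log2 0.07 and 0.78. Bpifa1, a secreted airway defence protein, fell, from 583.7 ± 300.0 to 163.3 ± 51.6 CPM (SD, n = 3) in WT.

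The promoters of Chil3 and Chil4 are shown because these near copies both rose under Af. In RefSeq's sequences on GRCm38.p6, all 5 members matched by symbol, and the 250 bases before RefSeq's start of Chil3 and of Chil4 were 72.0% identical. RefSeq's start of Chil3 is that given above from GENCODE, while its start of Chil4 lies 28 bases inside the GENCODE gene, so the sequences do not cover the same stretch. Both held 1 match to TTCNNNGAA, a palindrome of the kind bound by STAT factors, in capitals in the 69 bases below. The first lies at chr3:106167698-106167766 and the second at chr3:106219641-106219709, both shown on the minus strand.
Chil3: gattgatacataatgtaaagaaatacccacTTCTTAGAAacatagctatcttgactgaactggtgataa
Chil4: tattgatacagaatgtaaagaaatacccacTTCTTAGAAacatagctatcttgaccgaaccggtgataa
These windows were identical at 65 of 69 bases. In both genes the match ended 164 bases before the GENCODE start. On either strand, 7.02% of 32851 promoters of this length held TTCNNNGAA, and the promoters of Chia1, Chil1 and Chit1 did not. The same palindrome with 1 more N in its centre occurred in no member (5.85% of promoters). TATAAA (12.4% of promoters) occurred in the sequences of Chia1 and Chil4, at 38 and 26 bases before RefSeq's starts. From the GENCODE starts, the Chia1 match lies inside the gene, since RefSeq's start is 153 bases further in, and the Chil4 match spans the start. These matches describe the letters and not binding.

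Over the 12 libraries, Chia1 and Chil3 followed each other most closely of all pairs of members (Pearson r = 0.992 on log2 values), and r was 0.698 after the mean of each group was removed. Correlations over 12 libraries mostly carry the exposure that all share. The genes closest to Chil3 were Fxyd4, a regulator of the sodium pump (r = 0.994), Slc26a4, the anion exchanger pendrin (0.990), and Retnla, a resistin-like product of alternatively activated macrophages and epithelium (0.990). Those closest to Chia1 were Aurka (0.995) and Ube2c (0.993), which act in mitosis, and Capn9 (0.993), a calpain protease. Those closest to Chil1 were Pold3, a subunit of DNA polymerase delta (0.989), P2ry2, a nucleotide receptor (0.985), and Cdca4 (0.983).

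Chil4 was closest to Sprr2a3 (r = 0.989), Sprr2a2 (0.983) and Sprr2a1 (0.979), near-identical genes of the small proline-rich proteins of stratified epithelium whose reads the counting could also have divided. Without WT_PBS 17 and KO_Af 12 these values were 0.998, 0.998 and 0.989 over 10 libraries. After group means were removed, the closest were Sprr2a3 (0.994), Sprr2a2 (0.993) and Krt14 (0.969), and without the same libraries 0.978, 0.973 and 0.894. With group means removed, the closest genes to the other members were H2afx, Gata1 and Chad for Chia1 (r = 0.932 to 0.914), Rnpc3, Lox and St7 for Chil1 (0.927 to 0.918) and Tmem191c, Pcdhgc4 and Tmem213 for Chil3 (0.905 to 0.875). All these genes were picked as the highest among the tested genes. How high r would be from that choice alone was not tested.

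Of the 5 further genes of the hydrolase family, Chid1, which binds sugars and has no known chitinase activity, rose in both genotypes, from 24.4 ± 1.33 to 42.8 ± 5.64 CPM (SD, n = 3) in WT and from 23.1 ± 0.987 to 45.6 ± 1.19 CPM in KO (limma adjusted p = 5.52e-05 and 9.31e-06). Ctbs, the lysosomal chitobiase that trims glycans, was at 19.5 ± 0.957 CPM in WT_PBS, 16.5 ± 2.07 in WT_Af, 22.0 ± 1.59 in KO_PBS and 20.9 ± 0.714 in KO_Af, and did not pass. Ovgp1, the oviduct glycoprotein, was at 1.69 to 1.91 CPM on average in the groups and did not pass. Chil5 and Chil6, near Chil3 and Chil4 on chromosome 3, were below the filter in these lungs, at no more than 0.617 and 0.154 CPM in any library. The median change of the 3 tested was log2 0.08 in WT and -0.07 in KO, against -0.02 for all genes in both.

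Receptors and partners of Chil1 moved in both directions. Of 6, 3 rose and 2 fell in WT and 4 rose and 1 fell in KO (of all genes, 25.6% fell in WT and 29.2% in KO), with medians of log2 0.57 and 0.59 against -0.02 for all genes. Il13ra2, the receptor chain bound by Chil1, rose by log2 3.63 ± 0.17 SE in WT and 3.93 ± 0.17 in KO (limma adjusted p = 1.72e-07 and 4.64e-08). Lgals3, a galectin, went from 117.0 ± 20.0 to 586.3 ± 24.2 CPM (SD, n = 3) in WT and from 125.6 ± 5.51 to 639.2 ± 82.3 CPM in KO. Cd44, a hyaluronan receptor, also rose (1.83-fold in WT), and Ptgdr2, a prostaglandin D receptor, fell in both genotypes. The 4 genes of this list with the highest mean level had reads in every library. Of Il13ra2 and Ptgdr2, 1 had no read in WT_PBS 16 and 17 and KO_PBS 9 and 11, and neither was at 0 in an Af library. The size of a change from so low a level depends on the pseudocount. Tmem219 rose in KO (log2 0.43 ± 0.11 SE, adjusted p = 0.00493) and was not called in WT (log2 0.27 ± 0.11, adjusted p = 0.0551).

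Genes that sense chitin or fungal wall also differed among themselves. Of 8, 7 were tested, and 4 rose and 1 fell in each genotype, with medians of log2 1.07 in WT and 0.59 in KO. Those that rose were Clec7a, the beta-glucan receptor dectin, Mrc1, the mannose receptor, Reg3g, a secreted lectin, and Nod2, an intracellular sensor of bacterial wall. Clec7a went from 63.5 ± 11.6 to 165.6 ± 15.8 CPM (SD, n = 3) in WT and from 79.2 ± 6.85 to 206.7 ± 37.2 CPM in KO. Tlr2 fell in both (log2 -0.38 ± 0.10 SE in WT, limma adjusted p = 0.00808). No member of these first 3 lists was called between genotypes.

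Type 2 cytokines and their receptors rose alongside. Of 10 genes, 9 were tested, of which 6 rose in WT and 7 in KO and none fell, with medians of log2 1.56 and 1.59. Il13 rose by log2 3.51 ± 0.37 SE in WT and 3.24 ± 0.37 in KO (limma adjusted p = 1.78e-05 and 2.25e-05), and Il4 by 1.83 ± 0.25 and 1.59 ± 0.25. Il33, an epithelial alarmin, went from 86.7 ± 9.36 to 515.6 ± 74.4 CPM (SD, n = 3) in WT and from 57.7 ± 1.08 to 482.9 ± 60.8 CPM in KO, and was lower in KO under PBS (log2 -0.58 ± 0.12 SE, adjusted p = 0.0293). Stat6, which relays both interleukins, did not pass for Af (log2 -0.13 ± 0.09 SE in WT, adjusted p = 0.232).

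Of 10 products of alternative activation, 9 rose and 1 fell in each genotype, with medians of log2 3.21 and 3.68. Retnla went from 76.1 ± 15.0 to 8178 ± 987 CPM (SD, n = 3) in WT and from 81.0 ± 17.5 to 10097 ± 2712 CPM in KO. Arg1, arginase, rose by log2 7.06 ± 0.41 SE in WT (limma adjusted p = 5.74e-07). The gene that fell was Flt1, an endothelial receptor, from 333.8 ± 55.0 to 191.5 ± 28.9 CPM (SD, n = 3) in WT.

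Markers of the cells that could supply these transcripts moved with exposure as well, and their part in the members' changes was not tested. Medians below are log2 changes in WT and then KO, against -0.02 for all genes in both. Of 11 alveolar macrophage markers, 2 rose and 5 fell in WT and 2 rose and 4 fell in KO (medians -0.49 and -0.30), with summed levels of 536.4 to 684.7 CPM in PBS and 546.8 to 780.3 CPM in Af libraries. Car4 had the highest mean level in this sum, at 201.8 ± 53.7 CPM (SD, n = 3) in WT_PBS and 195.5 ± 16.2 CPM in WT_Af. Of 9 markers of monocyte-derived macrophages, 7 rose and 1 fell in each genotype (medians 1.64 and 2.21), and the sum was 260.1 to 367.7 CPM in PBS and 829.6 to 1188 CPM in Af. None of these 20 genes was at 0 in any library. Ccr2 and Cx3cr1, receptors of monocytes, were higher in KO than in WT under PBS (log2 0.97 ± 0.14 and 1.12 ± 0.27 SE, limma adjusted p = 0.00556 and 0.0456). Without WT_PBS 17 and KO_Af 12 the adjusted p was 0.0163 for Ccr2 and 0.111 for Cx3cr1. The other 7 of these 9 markers were not called, and the median of the 9 was log2 -0.21. C1qb was at 38.7 ± 4.99 CPM in KO_PBS against 62.4 ± 15.1 CPM in WT_PBS (SD, n = 3), and C1qa and C1qc were also lower in KO_PBS.

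Of 10 neutrophil markers, 7 rose in WT and 5 in KO (medians 0.88 and 0.83), with sums of 148.5 to 532.2 CPM in PBS and 428.0 to 879.8 CPM in Af. Of these, Mmp9 and Retnlg were higher in KO under PBS (log2 1.08 ± 0.21 and 1.41 ± 0.27 SE, limma adjusted p = 0.0182 and 0.0177). The other 8 were not called, and the median of the 10 was log2 0.83. Without WT_PBS 17 and KO_Af 12 that median was 0.84, and only Ngp and Camp were lower in KO_PBS (log2 -0.90 ± 0.57 and -0.31 ± 0.43 SE). Every KO_PBS sum (289.3 CPM or more) lay above every WT_PBS sum (229.2 CPM or less). Of all single genes, 33.1% had KO and WT groups that did not overlap under PBS. Of 7 eosinophil markers, 6 rose in each genotype (medians 2.27 and 2.43), with sums of 258.7 to 295.0 CPM in PBS and 388.4 to 718.1 CPM in Af. Cd24a made up most of these sums, at 243.5 ± 9.59 CPM (SD, n = 3) in WT_PBS and 303.3 ± 30.1 CPM in WT_Af. Prg2 went from 1.12 ± 0.214 to 26.7 ± 20.0 CPM in WT. Epx, the eosinophil peroxidase, rose by log2 4.09 ± 0.43 SE in WT (adjusted p = 1.88e-05).

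In the epithelium, goblet cell genes rose and club cell genes fell. Of 9 goblet cell markers, 8 rose in WT and 9 in KO (medians 3.27 and 4.56), and the sum went from 66.8 to 157.9 CPM in PBS to 1806 to 2356 CPM in Af libraries. Clca1, a secreted regulator of mucus, went from 16.1 ± 9.94 to 1197 ± 129 CPM (SD, n = 3) in WT. Muc5b and Spdef were lower in KO under PBS (limma adjusted p = 0.0154 and 0.0240). Of 8 club cell markers, 1 rose and 6 fell in each genotype (medians -1.45 and -1.37), among them Scgb1a1, the main secretoglobin of club cells, and the sum went from 19302 to 24551 CPM in PBS to 8345 to 15956 CPM in Af. Of 9 markers of alveolar type 2 cells, which make surfactant, 1 rose and 3 fell in each genotype (medians -0.29 and -0.27), with sums of 17491 to 28547 CPM in PBS and 15279 to 23921 CPM in Af.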

How the data were processed

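Lung RNA was extracted with a Qiagen kit and polyadenylated RNA made into Illumina TruSeq libraries, per the labels' protocols. Per the submitters' processing notes, the authors ran cutadapt 1.18, STAR 2.7.6a and RSEM 1.3.0; the notes list GRCm38 and GRCh38 without a role. The deposited signal is CPM, which by the authors' name for the table was scaled by TMM (trimmed mean of M-values). All values (100%) were whole multiples of 1 read at a tolerance of 0.01, so reads were recovered. The sources used here do not say whether counting used strand, which leaves antisense and overlapping genes uncertain.

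Genes that reached 1 CPM in 3 or more of the 12 libraries were tested with limma 3.58.1 (R 4.3.3), with a mean-variance trend, on log2(CPM + 0.5), in 1 fit over all 4 groups (8 residual degrees of freedom). Calls had a Benjamini-Hochberg adjusted p under 0.05. Fold changes are on this scale and are understated for low genes. The 2 tests of the Chil3 and Chil4 pair used exact permutation. Nothing says that libraries are separate animals, so p-values measure the spread between libraries. The limma intervals measure that spread as well, while the Wilson interval and the floors of 3 reads cover counting error only. The fit was tested on simulated data.

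The members and the 15 lists were chosen with earlier results of these data known. Named were all members, the 3 genes most like each tested member (Pearson, with and without group means, leaving out members, receptor segments, Gm and Rik names), up to 4 genes per list by mean level, the other family genes and Rgs4. Other list genes named (Il13ra2, Ptgdr2, Nod2, Tlr2, Il13, Il4, Cx3cr1, Mmp9, Ngp, Camp, Dsc3, Spdef, Itln1 and Epx) were chosen after their values were seen. Krt14 is both a likeness and a list gene. Alternatives were other pseudocounts, filters, rescaling, no trend, array weights, the compared groups alone, edgeR 4.0.16 and DESeq2 1.42.0 on the recovered reads, and left-out libraries. Positions, transcripts and lengths are from GENCODE M21 on GRCm38, identities from pairwise alignments with Biopython 1.88, promoters from RefSeq. Figures were drawn with matplotlib 3.10.9.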

Additional observations from a re-analysis of the deposited data

How the results depend on the processing

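The calls for Af kept direction and side of the threshold for Chia1, Chil1 and Chil3 under every alternative run, and for Chil4 in KO. The exception was DESeq2, which gave Chil4 neither a p nor an adjusted p. Chil4 in WT lost its call with edgeR (log2 2.56) and ran from 4.92 to 9.01 when each library was left out; the cause was not tested beyond leaving out WT_PBS 17. The summed pair kept its call under every alternative run. The share of Chil4 gained its call without WT_PBS 17 (22.8 points) and without WT_PBS 17 and KO_Af 12 (20.9 points), and ran from 8.52 to 22.8 points when each library was left out. Fitted on the groups compared alone, Chil4 was below the filter under PBS and had no test there. No paired analysis was possible because the groups share no library numbers.

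No member was called between genotypes under any alternative run, and differences near 0 changed sign. For Chia1 under Af these were -0.00737 rescaled, -0.00612 with edgeR, -0.00597 with DESeq2 and -0.13 without WT_PBS 17 and KO_Af 12. For Chil1 under Af they were 0.038 with array weights and 0.017 without both libraries, with -0.011 under PBS and 0.028 for the interaction without both. For Chil3 they were 0.082 under Af with array weights, and without both libraries -0.048 under PBS and -0.10 averaged. Chil4 averaged was 0.13 without WT_PBS 17.
With each library left out in turn, the log2 differences ran as follows. For Chia1 they ran from -0.17 to 0.17 under PBS, -0.13 to 0.35 under Af, -0.088 to 0.15 averaged and -0.13 to 0.39 for the interaction. For Chil1 they ran from -0.011 to 0.25, -0.15 to 0.017 and -0.031 to 0.098 for the first 3. For Chil3 they ran from -0.13 to 0.41, -0.20 to 0.17, -0.066 to 0.20 and -0.41 to 0.12, and for Chil4 averaged from -1.92 to 0.13.

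Counts over all genes moved more. KO against WT under PBS called 573 genes, with 2646 under array weights, 1216 with DESeq2, 373 with no filter, 1191 with the compared groups alone, and 130 to 1235 with a library left out (130 without KO_PBS 10, 1235 without KO_Af 12). Under Af it called 14, with 9 under the filter over 6 libraries, 2204, 187 and 3 under array weights, DESeq2 and the compared groups alone, and 3 to 111 with a library left out (3 without WT_Af 18, 111 without KO_Af 13). Averaged it called 349, with 3224, 1147 and 188 under array weights, DESeq2 and no filter, and 103 to 813 with a library left out (103 without WT_Af 19, 813 without KO_Af 13). The interaction called 1 gene, with 0 under the filter over 6 libraries, with no filter and with no trend, 2 with pseudocount 1, 5 rescaled, 1602 with array weights, 362 with DESeq2, and 0 to 187 with a library left out (187 without KO_Af 13).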
